A study of Mus musculus with 28 samples.

Results

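Small nucleolar RNAs (snoRNAs), small Cajal body-specific RNAs (scaRNAs) and their host genes were followed in mIMCD-3 cells, an epithelial line from the mouse inner medullary collecting duct. Members were the rows whose symbol begins with Snord, Snora, Scarna or Snhg followed by a digit, and Gas5. These were 164 of 45706 genes, of which 150 are small RNAs (99 Snord, 42 Snora and 9 Scarna) and 14 are hosts (13 Snhg genes and Gas5). RNA sequencing had been done on 28 libraries, 4 each of polyclonal wild-type (WT) cells, of the monoclonal WT line WT5 and of subclones 1 to 5. WT5 had been grown from a single sorted polyclonal cell, and every subclone from a single sorted WT5 cell, so each of these 6 groups is 1 clone. WT5 had been picked among clones with primary cilia. All groups descend from an SV-40 transgenic mouse, none was edited with CRISPR-Cas9 or given an added agent, and RNA was taken with a silica-column kit from fully confluent cultures grown in serum. Whether the libraries of a group are separate cultures is not clear from the methods, so p-values measure the spread between libraries, which may be technical.

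snoRNAs guide chemical changes of ribosomal and spliceosomal RNA. Box C/D RNAs (symbols Snord) guide ribose methylation and box H/ACA RNAs (symbols Snora) guide pseudouridylation, while scaRNAs do the same for spliceosomal RNA in Cajal bodies. In mammals most of them are cut out of introns of host transcripts. Some hosts encode ribosomal or other abundant proteins, whereas the Snhg genes and Gas5 leave spliced RNAs that encode no known stable protein, several of which are degraded by nonsense-mediated decay. The comparison addressed here is therefore between short, unpolyadenylated RNAs and long spliced transcripts, which come only in part from the same genes. Of the small RNAs, 90 lie in protein-coding genes, outside the Snhg genes and Gas5, and 9 have no host on their strand.

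Values were TPM, transcript levels scaled for transcript length and to a fixed total per library, which keep no depth. The lengths used in that scaling are not given in the sources used here and need not equal the exon lengths given below. Polyclonal cells had been sequenced as single-end reads of 50 bp, and WT5 and the subclones as paired-end reads of 150 bp. Sequencing and cell line therefore cannot be told apart between polyclonal cells and all other groups, and the subclones stand in a separate table from WT5. In each polyclonal library 18681 to 19272 genes were above 0, compared with 16270 to 17004 in the paired-end libraries, and libraries of a group correlated at r = 0.981 to 0.993 on the log2 scale. Protein-coding genes took 81.9 to 83.6% of the TPM in polyclonal cells, 95.7 to 95.9% in WT5 and 91.6 to 93.7% in the subclones. All 9 tubule epithelium markers were above 0 in every group (summed TPM of 2012 to 3483), as were 3 of 4 collecting duct markers, while Aqp2 was listed at 0 in every library. The collecting duct markers were low, with sums of 12.61 to 14.21 TPM in polyclonal cells, 4.75 to 5.31 in WT5 and 3.57 to 7.48 in the subclones. Of these, Avpr2, the vasopressin receptor, was at 9.7 to 10.97 TPM in polyclonal cells and at 0 to 0.4 in all other libraries (z-score difference -2.76 between WT5 and polyclonal cells, adjusted p = 3.6e-05 by limma), and its part in the results was not tested. Markers of fibroblasts summed to at most 2.14 TPM, of leukocytes to at most 4.68 and of endothelium to at most 0.29.

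The sequences below, taken from GRCm38 at the GENCODE M21 gene bounds, are those on which the results turn. Capitals mark a C box (TGATGA in the first 20 bases) and a D box (CTGA in the last 12 bases) in box C/D RNAs, or the ACA that stands 3 bases before the 3′ end in box H/ACA RNAs. The first 5 were among the highest or most regularly detected small RNAs of under 200 bases in polyclonal cells.
Snord104: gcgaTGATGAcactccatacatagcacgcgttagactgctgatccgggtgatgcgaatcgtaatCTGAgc
Snord22: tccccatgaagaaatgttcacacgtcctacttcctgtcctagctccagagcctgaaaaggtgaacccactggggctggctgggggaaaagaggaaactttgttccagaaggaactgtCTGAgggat
Snord47: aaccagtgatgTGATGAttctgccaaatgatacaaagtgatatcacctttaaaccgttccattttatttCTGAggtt
Snora31: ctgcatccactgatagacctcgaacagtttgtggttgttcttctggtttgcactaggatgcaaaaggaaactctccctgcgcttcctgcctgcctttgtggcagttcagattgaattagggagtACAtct
Snora7a: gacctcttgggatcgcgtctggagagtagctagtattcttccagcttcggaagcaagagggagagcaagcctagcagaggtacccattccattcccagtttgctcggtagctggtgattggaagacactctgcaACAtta

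Snord104 lies at chr11:106500993-106501062, plus strand, outside any host on its strand. Snord22 (chr19:8725866-8725991, plus strand) lies in an exon of Snhg1, which is not analysed here, and its first 20 bases hold no TGATGA. Snord47 (chr1:161038082-161038158, plus strand) overlaps an exon of Gas5, Snora31 (chr14:75847905-75848034, plus strand) lies in an intron of Tpt1, and Snora7a (chr6:115807975-115808114, minus strand) overlaps an exon of Rpl32. The next 3 sequences are the longest snoRNAs among the members, each over 200 bases.
Snora73a: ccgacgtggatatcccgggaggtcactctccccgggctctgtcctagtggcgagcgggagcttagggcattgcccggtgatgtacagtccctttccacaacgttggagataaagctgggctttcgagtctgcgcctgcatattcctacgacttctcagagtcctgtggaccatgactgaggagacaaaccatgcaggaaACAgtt
Snora73b: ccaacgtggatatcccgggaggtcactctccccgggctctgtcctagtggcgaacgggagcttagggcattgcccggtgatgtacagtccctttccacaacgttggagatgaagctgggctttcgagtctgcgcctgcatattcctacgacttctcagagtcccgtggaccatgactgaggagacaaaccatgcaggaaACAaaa
Snord17: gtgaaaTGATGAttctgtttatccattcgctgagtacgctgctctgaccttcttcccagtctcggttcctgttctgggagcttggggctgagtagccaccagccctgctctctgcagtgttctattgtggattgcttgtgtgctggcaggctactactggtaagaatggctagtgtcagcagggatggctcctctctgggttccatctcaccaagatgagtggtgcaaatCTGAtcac

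Snora73a (chr4:132352775-132352979, minus strand) and Snora73b (chr4:132352322-132352526, minus strand) both lie in Snhg3, and 198 of their 205 positions are identical (96.6%). Reads of such a pair can be split between the copies, so the values of each are uncertain. Snord17 (chr2:144265979-144266216, minus strand) lies in an intron of Snx5. The last sequence stands for the 17 Snord116 copies that lie inside Snhg14 on its strand, which hold 4 distinct sequences, 1 of them shared by 14 copies.
Snord116l1: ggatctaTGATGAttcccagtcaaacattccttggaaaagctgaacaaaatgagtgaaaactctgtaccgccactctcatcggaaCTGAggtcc

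This copy lies at chr7:59894620-59894713, minus strand. Across all members, 65 of 99 Snord genes (65.7%) held both boxes and 35 of 42 Snora genes (83.3%) held the ACA. Among 4818 other genes of under 200 bases that are no snoRNA or scaRNA, 0.0623% held both boxes and 2.14% the ACA. Detected and undetected members held the motifs at similar rates. Snord genes with both boxes were above 0 in at least 1 polyclonal library in 27 of 65 cases (41.5%) and those without in 16 of 34 (47.1%). Snora genes with the ACA were so in 23 of 35 (65.7%) and without in 5 of 7 (71.4%).

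Small RNAs were detected almost only in polyclonal cells. Of the 150 small RNAs, 79 were above 0 in at least 1 polyclonal library, 7 in at least 1 of the 24 paired-end libraries, and 71 were listed at 0 in all 28. The 4 polyclonal libraries held 42, 39, 37 and 49 small RNAs above 0, whereas WT5 libraries held 1 to 3 and subclone libraries 0 to 4. No library of WT5 or of a subclone came near the lowest polyclonal library. None of the 7 was absent from polyclonal cells. Detection was irregular even there, with 11 small RNAs above 0 in all 4 polyclonal libraries and 28 in exactly 1. The summed level of all small RNAs was 67.05 to 114.51 TPM in polyclonal cells, 1.56 to 42.34 in WT5 and 0 to 63.38 in the subclones, so that the sums of polyclonal cells, like the counts, did not overlap those of the other groups. Over the same libraries the 14 hosts summed to 1228 to 1285 TPM in polyclonal cells, 845 to 903 in WT5 and 869 to 1163 in the subclones, with 11 to 13 of them above 0 in every library. In bulk RNA, fewer cells that express a gene and less RNA of it per cell cannot be told apart.

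**Figure D1:**
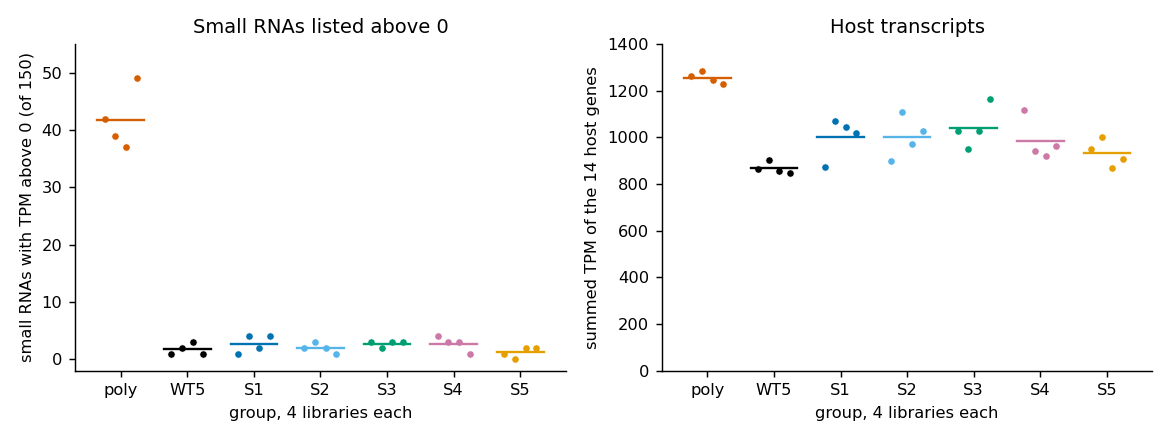
Left, number of the 150 small RNAs with TPM above 0 (y axis) in each library of polyclonal WT cells (poly), WT5 and subclones 1 to 5 (S1 to S5). Right, summed TPM of the 14 host genes in the same libraries. Points are libraries and lines the mean of 4. Polyclonal libraries hold 37 to 49 small RNAs and all others 0 to 4, while the hosts are present in every group.

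The share of members seen in polyclonal cells was highest for scaRNAs. Of the Scarna genes, 8 of 9 (88.9%) were above 0 in at least 1 polyclonal library, compared with 28 of 42 Snora (66.7%) and 43 of 99 Snord genes (43.4%). In all 4 polyclonal libraries this held for 1 Scarna, 8 Snora (19.0%) and 2 Snord genes (2.02%). The families also differ in length, with a median of 84 bases for Snord, 132.5 for Snora and 140 for Scarna genes.

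Exon length separated the small RNAs that were listed above 0 in paired-end libraries from those that were not. All 7 that were seen there are at least 205 bases long, and the longest one at 0 in all 24 has 196 bases. Of the 143 small RNAs of under 200 bases, 72 (50.3%) were above 0 in at least 1 polyclonal library and 0 in a paired-end library. Genes outside the member list showed the same split: 117 of 1377 other snoRNA and scaRNA genes of under 200 bases (8.5%) were seen in polyclonal cells and 0 in paired-end libraries, and of all 4818 remaining genes of that length 518 (10.8%) and 3 (0.0623%). Of the remaining genes of at least 200 and under 300 bases, 24.6% were above 0 in at least 1 of 4 polyclonal libraries, 3.66% in at least 1 of 4 WT5 libraries and 8.84% in at least 1 of all 24 paired-end libraries. From 500 to under 1000 bases these shares were 35.3%, 19.0% and 29.0%, and at 2000 bases and more 72.1%, 70.4% and 78.3%. Over the 4 WT5 libraries 4 of the 7 long small RNAs were seen. Among the hosts the same held, since Snhg9, with 183 exon bases the shortest, was at 1.07, 0.38, 1.59 and 0.37 TPM in polyclonal libraries and listed at 0 in all 24 others. The gene span of Snhg9 overlaps that of Rps2 by 435 bases on the opposite strand, and counting by strand is not stated. Rps2 had means of 889 TPM in polyclonal cells and 3461 in WT5, and whether its reads enter the values of Snhg9 was not tested. Read length, library layout and cell line all change between these groups and cannot be told apart.

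**Figure D2:**
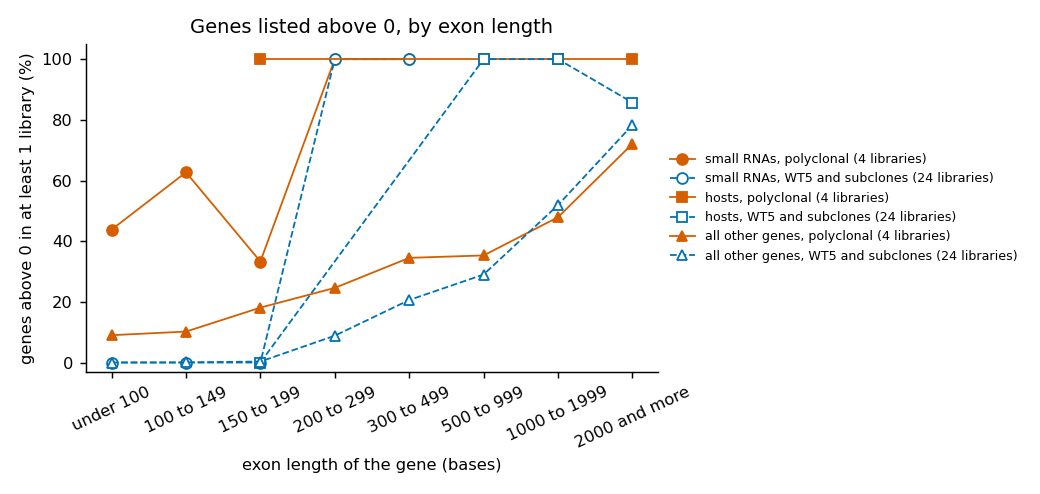
Share of genes (y axis, %) with TPM above 0 in at least 1 library by exon length (x axis, bases), for the small RNAs, the hosts and all other genes that are no snoRNA or scaRNA. Filled symbols and full lines are the 4 polyclonal libraries, open symbols and dashed lines the 24 libraries of WT5 and the subclones. Below 200 bases the dashed lines lie at or near 0, and small RNAs of 200 bases or more reach 100% in both.

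In polyclonal cells the 3 short members with the highest mean TPM were the box C/D RNAs Snord104, Snord22 and Snord4a. Snord104 was at 7.1, 15.23, 0 and 4.88 TPM in the 4 libraries. Snord22 had 4.98, 3.34, 5.0 and 8.99 TPM, Snord4a, from an intron of the ribosomal protein gene Rpl23a, had 0, 4.8, 3.37 and 7.81, and Snord100, in an exon of Rps12, had 5.92, 0, 3.52 and 6.1. Only Snord22 of these was above 0 in every polyclonal library. Snora7a, from the ribosomal protein gene Rpl32, was at 3.16, 6.2, 0.47 and 5.97 TPM, and Snora31, from Tpt1, which encodes translationally controlled tumor protein, was the steadiest of the higher ones at 3.55, 2.54, 3.17 and 2.44. All of these were listed at 0 in the 24 paired-end libraries.

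No small RNA was above 0 in all 8 libraries of polyclonal cells and WT5, so none entered the main comparison, which tested z-scored log2(TPM) with limma. When genes above 0 in any of the 8 libraries were tested as log2(TPM + 0.1), 6 of 79 small RNAs passed an adjusted p (Benjamini-Hochberg) below 0.01 together with a z-score difference above 1, all of them lower in WT5. Of all 23738 genes 4.57% passed in either direction and 3.32% as lower, and of 635 other genes of under 200 bases 113 passed, a larger share than of the small RNAs. These 6 were Snord22 (z-score difference -1.38 ± 0.069 (SE), adjusted p = 1.6e-06 by limma), Snora31 (-1.16), Snora7a (-1.15), Snora68 (-1.09), Snora57 (-1.04) and Snord16a (-1.03). They were at 0 in all WT5 libraries and above 0 in all polyclonal ones. All 79 had entered the test through a value above 0 in polyclonal cells, and 72 of them were at 0 in every paired-end library. The direction of the calls was thus largely set by this filter, and they add no support beyond the detection counts. In total 11 passed the adjusted p alone, namely these, Snora28, Snora34, Snora5c, Snora17 and Scarna10, the same 11 that were above 0 in every polyclonal library, beside 56.5% of all genes tested. Since the WT5 value was 0 for each, these differences depend on the pseudocount, and 0 were called with log2(TPM + 1), where 10 passed the adjusted p alone (60.4% of all genes). With log2(TPM + 1), 77 of the 635 other short genes were called.

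Detection in polyclonal cells was also set against the position in the host and the level of the host, as a description without a test. Small RNAs in an exon of a same-strand transcript were above 0 in at least 1 polyclonal library in 30 of 55 cases (54.5%) and those in an intron in 35 of 77 (45.5%). Those partly in an exon were so in 7 of 9 (77.8%), and those without a same-strand host also in 7 of 9 (77.8%). With a host of at least 100 TPM in polyclonal cells 44 of 70 (62.9%) were seen, at 10 to 100 TPM 19 of 36 (52.8%) and at 1 to 10 TPM 4 of 25 (16.0%). Of these 25, 17 are the Snord116 copies in Snhg14, all at 0, and without them it was 4 of 8. Below 1 TPM it was 2 of 7 (28.6%), and without a host that has a value 10 of 12 (83.3%), the highest share. Of the 150 small RNAs, 88 share more than 20% of their 50-base stretches with another annotated gene, 59 of them most with their host, so reads of host exons and of the small RNA itself cannot be told apart for them.

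Of the 7 long small RNAs, both Snora73 copies and Snord17 were either at 0 or well above their polyclonal values in paired-end libraries. Snora73a was at 1.28, 0.07, 0 and 0 TPM in polyclonal cells and at 0, 31.66, 0 and 28.49 in WT5. In the subclones it was above 0 in only 3 of 20 libraries, at 20.64 and 39.58 in subclone 1 and 34.18 in subclone 3. Snora73b had 0.62, 1.02, 1.19 and 0 TPM in polyclonal cells, 19.39 in 1 WT5 library and 12.7 to 45.88 in 5 subclone libraries. Either copy was thus at least 12.7 TPM or listed at 0 in every paired-end library. At least 1 of the pair was above 0 in 10 of the 24 libraries, both in 1 and neither in 14, among them all 4 of subclone 5. Snora73 RNAs are known for a part in the processing of ribosomal RNA.

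Snord17 was at 0, 0.54, 0.67 and 0.78 TPM in polyclonal cells and above 0 in 6 of 24 paired-end libraries, at 5.05 to 21.51. The longer scaRNAs were less extreme. Scarna2, with 414 bases the longest small RNA, was at 1.43, 0, 0.12 and 0.67 TPM in polyclonal cells, at 1.56, 0.65, 1.44 and 0 in WT5, and above 0 in 19 of 20 subclone libraries at up to 2.71. Its polyclonal and WT5 values overlapped. Scarna10 (325 bases) was at 0.94, 0.55, 0.2 and 0.53 TPM in polyclonal cells, listed at 0 in all 4 WT5 libraries and above 0 in 10 of 20 subclone libraries (0.8 to 4.04 TPM). Scarna6 and Scarna13 were above 0 in 3 and 1 subclone libraries, at 2.78 to 7.02 and 2.92 TPM. With genes above 0 in any library and log2(TPM + 0.1), limma called 0 of the 7 between WT5 and a subclone or among the subclones. By the unequal-variance test Snora73a, at 0 in every library of subclones 2, 4 and 5, was called among the subclones (0.171% of all genes). In those subclones its spread came only from the z-scoring of each library, so this call adds no support for a difference.

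**Figure D3:**
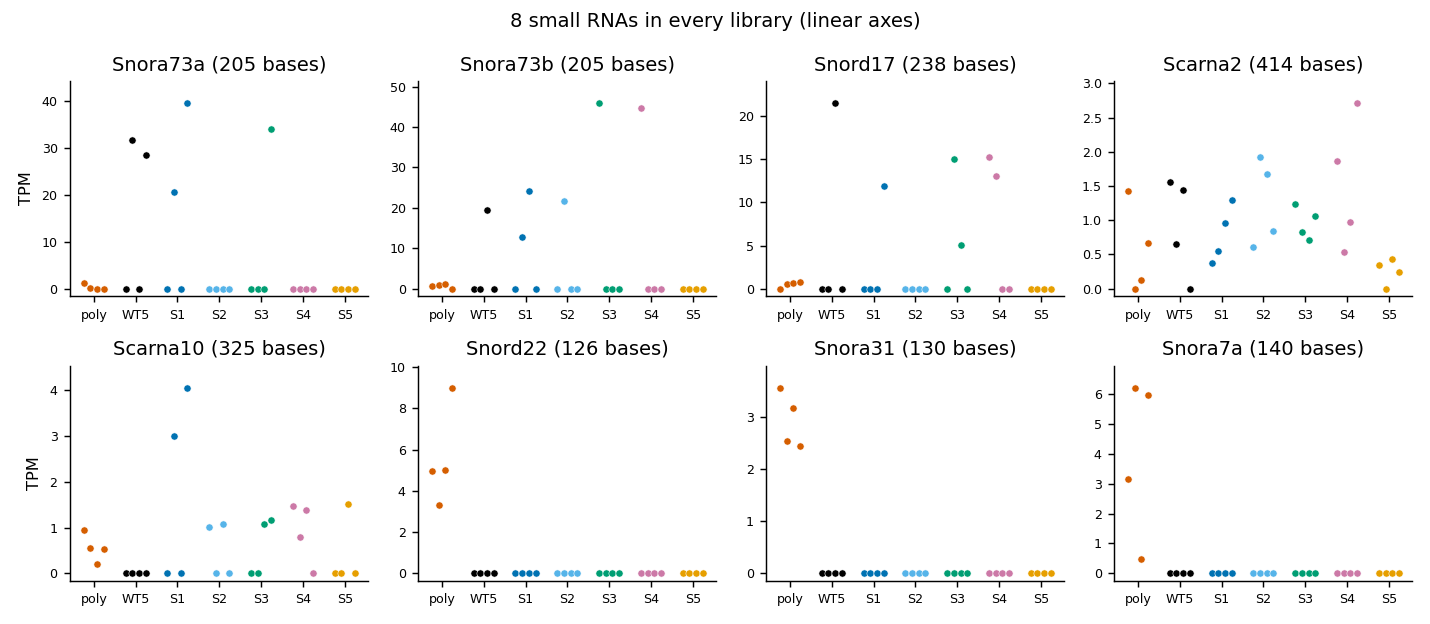
TPM (y axes, linear) of 8 small RNAs in every library of polyclonal WT cells (poly), WT5 and subclones 1 to 5 (S1 to S5). Points are single libraries. The 3 short RNAs (Snord22, Snora31, Snora7a) are above 0 in all 4 polyclonal libraries and in no other, and Snora73a, Snora73b and Snord17 are either at 0 or at 5.05 TPM and more in paired-end libraries.

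The spliced host transcripts were present on both sides and moved in both directions. Of the 14 hosts, 11 were above 0 in all 8 libraries of polyclonal cells and WT5 and were tested, and 10 of these passed an adjusted p below 0.01, 7 higher and 3 lower in WT5, whereas 65.5% of all 13723 genes did so (34.5% higher and 30.9% lower). Only Snhg18 also passed the z-score difference of 1, as did 5.43% of all genes (2.31% higher and 3.12% lower). The libraries of 10 of the 11 hosts did not overlap between the groups (72.3% of all genes). The median z-score difference of all genes was 0.0099.

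Gas5, a growth arrest-associated transcript and the most abundant host, was at 819.2, 853.41, 821.3 and 801.95 TPM in polyclonal cells and at 310.32, 321.88, 318.53 and 315.47 in WT5. The groups were far apart, with a mean of 824 ± 21.5 (SD, n = 4) against 317 ± 4.91, 2.60-fold higher in polyclonal cells. The z-score difference was -0.50 ± 0.012 (SE), with an adjusted p of 3.0e-08 by limma. Gas5 made up 64.8 to 66.4% of the summed host level in polyclonal cells, 35.6 to 37.3% in WT5 and 37.8 to 46.7% in the subclones. Of the 4 small RNAs annotated in it, only Snord47 was seen, at 4.1, 1.14, 0 and 8.9 TPM in polyclonal cells and at 0 elsewhere.

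Snhg8 was at 209.14, 221.0, 208.38 and 204.17 TPM in polyclonal cells and 113.72, 125.53, 118.37 and 123.92 in WT5, with no overlap and a z-score difference of -0.32 ± 0.015 (SE) (adjusted p = 7.3e-07 by limma). Its H/ACA RNA Snora24 was at 1.64 TPM in 1 polyclonal library and at 0 in all others. Snhg3, the host of both Snora73 copies, was at 79.05, 70.44, 67.45 and 74.98 TPM in polyclonal cells and 65.25, 63.64, 52.51 and 63.35 in WT5. The 2 groups lay close together, and the difference of -0.15 ± 0.031 (SE) (adjusted p = 0.0032 by limma) was lost without polyclonal replicate 1 or 4 and on the log2 scale without z-scores (adjusted p = 0.025 by limma).

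The other hosts that passed were higher in WT5. Snhg6, the host of Snord87, was at 81.69, 70.92, 76.65 and 74.42 TPM in polyclonal cells and 182.96, 187.72, 173.44 and 160.4 in WT5, 2.32-fold higher (z-score difference 0.33 ± 0.023 (SE), adjusted p = 5.8e-06 by limma). Snhg5, the host of Snord50a and Snord50b, was at 21.5 ± 0.932 (SD, n = 4) and 41.1 ± 2.98 TPM, while Snhg12, which holds 5 annotated small RNAs, was at 20.02, 22.41, 23.21 and 24.46 TPM in polyclonal cells and 44.24, 56.31, 51.79 and 40.94 in WT5. No polyclonal library of either reached a WT5 library.

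Snhg15 was at 9.95, 6.49, 7.71 and 8.49 TPM in polyclonal cells and 37.71, 35.61, 30.83 and 30.57 in WT5, 4.13-fold higher (z-score difference 0.59 ± 0.045 (SE), adjusted p = 9.8e-06 by limma). Snhg20 was at 9.97, 9.17, 8.52 and 10.1 TPM in polyclonal cells and 36.71, 33.12, 25.03 and 32.07 in WT5, and Snhg17 at 8.76 ± 1.18 (SD, n = 4) and 23.3 ± 1.40. No small RNA of the member list was placed in Snhg17 or Snhg20. Those of Snhg5, Snhg6, Snhg12 and Snhg15 could not be set against the increases. None of the 143 members of under 200 bases was above 0 in a paired-end library. Snora9 of Snhg15 was at 0.69 TPM in 1 polyclonal library, Snord99 of Snhg12 at 0, 2.11, 3.0 and 0.07, and neither was above 0 in WT5. Snord87 of Snhg6 was listed at 0 in all 28 libraries.

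Snhg18 had the largest difference of the hosts. It was at 0.1, 0.04, 0.12 and 0.07 TPM in polyclonal cells and 12.04, 13.65, 13.61 and 13.28 in WT5, 159-fold higher, with a z-score difference of 2.32 ± 0.095 (SE) (adjusted p = 4.0e-07 by limma). The gene is a lincRNA of 1486 exon bases that starts next to Sema5a, which encodes a transmembrane semaphorin and is read in the other direction. Sema5a, chosen after its values were seen, moved along with it, from 0.16 to 0.24 TPM in polyclonal cells to 25.47 to 28.57 in WT5 (z-score difference 2.23, adjusted p = 6.1e-09 by limma). Snord123, the box C/D RNA in Snhg18, was listed at 0 in all libraries. Snhg14 did not pass, with 2.15, 0.86, 0.61 and 0.98 TPM in polyclonal cells and 1.63, 1.61, 1.43 and 1.33 in WT5, which overlapped (adjusted p = 0.48 by limma). Of the hosts that were not tested besides Snhg9, Snhg7os was at 0 to 0.03 TPM in polyclonal cells and 0.09 to 0.80 in WT5, and Snhg11 was at 0.02 TPM in 1 library.

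The share of protein-coding genes in the TPM also differed between these groups, so the hosts were set against it. On the log2 scale without z-scores the median of all genes shifted by 0.24, and relative to this median Gas5 differed by -1.62, Snhg8 by -1.05, Snhg3 by -0.50, Snhg15 by 1.81 and Snhg6 by 0.97. With a log2 difference above 1 in place of the z-score, 7 hosts were called (25.5% of all genes, 17.0% higher and 8.55% lower), and 66.5% of all calls were then higher, against 42.6% with z-scores and 53.9% after rescaling over protein-coding genes. The direction of each of the 10 hosts was the same on all 3 scales. Reads of opposite strands cannot be told apart where counting by strand is not stated, and the gene spans of Gas5 and Zbtb37 overlap by 428 bases, those of Snhg3 and Gm17300 by 1611 and those of Snhg6 and Mcmdc2 by 127.

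**Figure D4:**
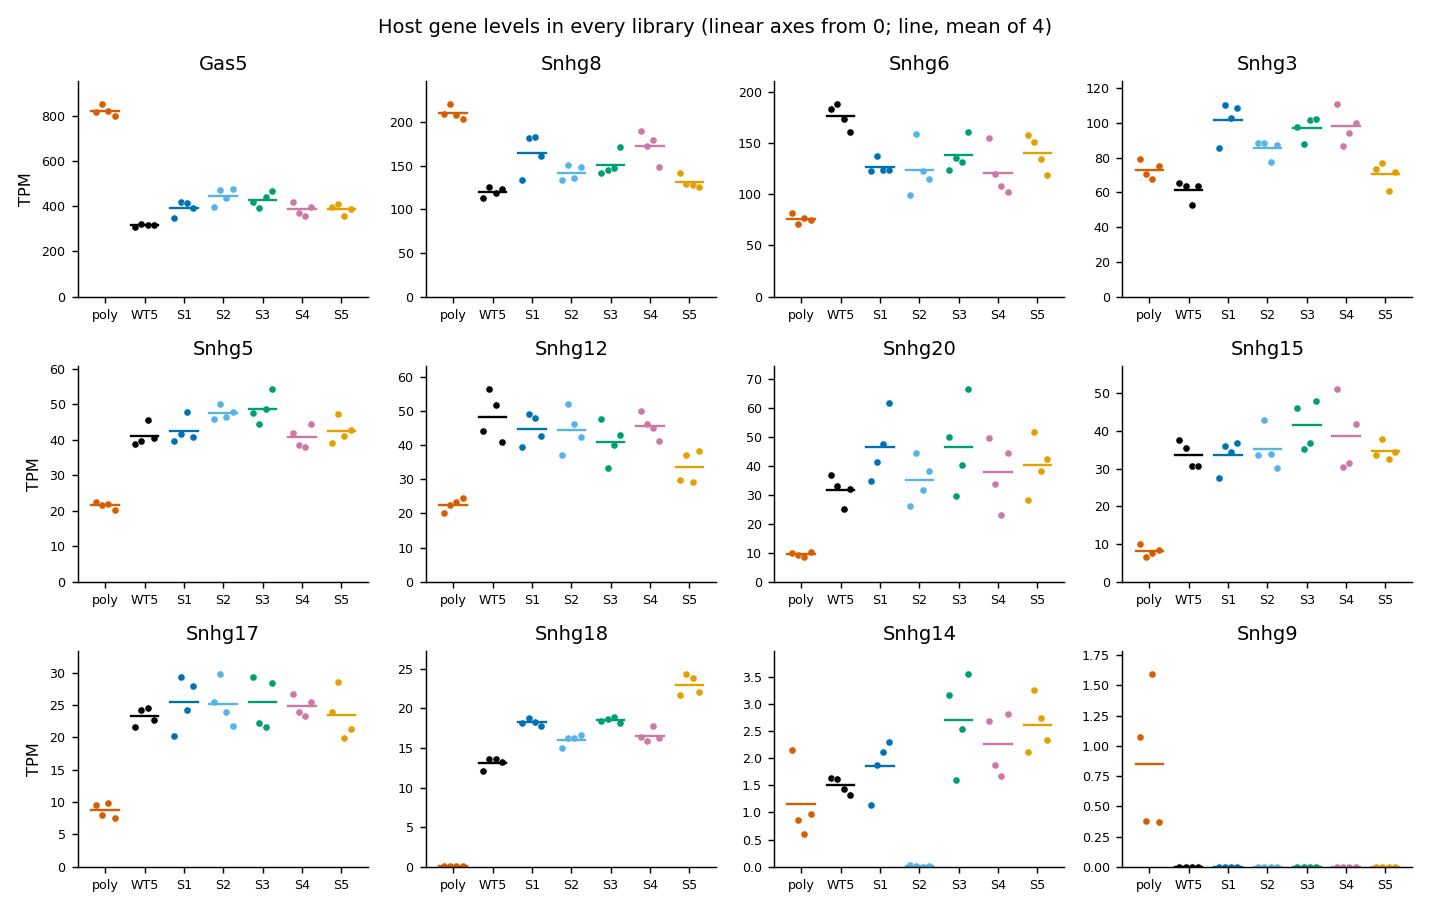
TPM (y axes, linear from 0) of 12 host genes in every library of polyclonal WT cells (poly), WT5 and subclones 1 to 5 (S1 to S5). Points are libraries and lines the mean of 4. Gas5 and Snhg8 are highest in polyclonal cells, Snhg18 is near 0 there and at 12.04 TPM or more elsewhere, and Snhg14 is at 0.03 TPM or less in subclone 2.

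Subclones were set against WT5, from which they derive, to ask whether hosts still differ after single-cell sorting of a line that was already clonal. Of 10 hosts above 0 in all 24 libraries, 0 were called in any subclone by limma (all genes 0.152%, 0.144%, 0.173%, 0.202% and 0.173% in subclones 1 to 5, 0.613% in at least 1). The adjusted p alone was passed by 5, 4, 5, 4 and 2 hosts, beside 26.3%, 26.0%, 19.5%, 37.3% and 21.9% of all genes, and an unadjusted p below 0.05 by 6, 5, 7, 6 and 7. All but 1 of these 20 differences were higher in the subclone (all genes 12.7%, 13.4%, 8.65%, 18.2% and 10.2% higher, of those tested). Of the passing genes, 1756 of 3644, 1857 of 3609, 1199 of 2708, 2516 of 5173 and 1419 of 3034 were higher. In at least 1 subclone 6 hosts passed (53.5% of all genes). By the study's unequal-variance test 2, 1, 3, 3 and 1 hosts passed, beside 14.7%, 13.9%, 8.14%, 25.9% and 9.12% of all genes. Of all called genes 4.17 to 35.7% were higher in a subclone, against 41.3 to 55.8% on the log2 scale without z-scores. The 5 comparisons share the WT5 libraries, so a deviation of WT5 enters each of them.

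Gas5 was higher than WT5 in all 5 subclones, with z-score differences of 0.14, 0.22, 0.22, 0.16 and 0.17. The 4 libraries were at 348.27, 421.24, 413.12 and 394.15 TPM in subclone 1, 395.93, 473.77, 436.31 and 478.82 in subclone 2, and 420.19, 394.16, 439.36 and 467.45 in subclone 3. Subclone 4 had 421.22, 372.7, 357.52 and 396.75 TPM and subclone 5 had 398.43, 411.73, 358.08 and 388.65. Every subclone library lay above the highest WT5 library (321.88) and below the lowest polyclonal library (801.95). Adjusted p-values by limma were 0.0031, 0.0012, 1.6e-04, 3.4e-04 and 0.0012, and 3.26% of all genes were likewise higher in each subclone. In subclone 1 this was lost without WT5 replicate 1, 3 or 4 or subclone 1 replicate 2, and by the unequal-variance test Gas5 passed in subclone 3 alone. Subclone and WT5 libraries stand in separate tables, so a difference common to all subclones and one between tables cannot be told apart.

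Snhg18 was the other host that was higher in all 5, and subclone 5 stood above the rest. Its libraries were at 21.61, 24.27, 23.87 and 22.05 TPM in subclone 5 and at 14.95 to 18.9 in subclones 1 to 4, none of which overlapped WT5. The z-score differences were 0.16, 0.11, 0.18, 0.12 and 0.29, with an adjusted p of 7.6e-05 in subclone 5 and 0.0039 in subclone 2 by limma, and the latter held without subclone 2 replicate 1 but was lost without any 1 of the other 7 libraries. By the unequal-variance test Snhg18 did not pass in subclones 2 and 3. Sema5a was at 23.14 to 41.89 TPM in WT5 and the subclones together and highest in subclone 2 (38.6 ± 2.39 (SD, n = 4)), where Snhg18 was lowest (16.0 ± 0.753), so the pair did not keep the same order among the subclones.

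Snhg3 and Snhg8 were higher than WT5 in subclones 1 to 4. Snhg3 was at 102 ± 11.3, 85.2 ± 5.24, 97.3 ± 6.50 and 98.0 ± 10.0 TPM (SD, n = 4) in these, without overlap with WT5, and at 73.44, 76.69, 60.84 and 71.46 in subclone 5, which overlapped. The z-score differences of Snhg3 were 0.26, 0.19, 0.27 and 0.27. For Snhg8 they were 0.18, 0.12, 0.17 and 0.22, of which that in subclone 1 was lost without any library other than subclone 1 replicate 1, and that in subclone 2 without any WT5 library or subclone 2 replicate 3 or 4. Snhg5 was higher in subclone 3 (z-score difference 0.12, adjusted p = 0.0038 by limma) and Snhg6 lower in subclone 1 (-0.13, adjusted p = 0.0034 by limma), of which the former was lost without WT5 replicate 1, 2 or 4 or subclone 3 replicate 3 and the latter without WT5 replicate 1 or 2 or subclone 1 replicate 1 or 4. The mean of Snhg6 was below that of WT5 (176 TPM) in all 5 subclones, at 127, 124, 138, 121 and 140 TPM. Its libraries overlapped those of WT5 in subclone 3 alone, although the adjusted p was passed only in subclone 1. Snhg12, Snhg15, Snhg17 and Snhg20 passed in no subclone.

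Among the 5 subclones, tested by an F test of limma, 0 of 10 hosts were called (0.613% of 14031 genes) and 2 passed the adjusted p alone (24.6% of all genes, 5 hosts at an unadjusted p below 0.05). These were Snhg18, with a range of group means of 0.18 z-score units (adjusted p = 3.0e-05 by limma), and Snhg3, with 0.15 (adjusted p = 0.0034 by limma). Snhg3 no longer passed without subclone 5 replicate 3 or 4.

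The largest difference of a host among the subclones concerned Snhg14, a long transcript read through the imprinted region that holds Snrpn, the Snord116 and Snord115 clusters and, on the other strand, Ube3a. It spans chr7:59307924-59975759 on the minus strand and has 26093 exon bases. The 4 libraries of subclone 2 were at 0.03, 0.02, 0 and 0.01 TPM. Subclone 1 had 1.13, 1.87, 2.11 and 2.3 TPM, subclone 3 had 3.17, 1.59, 2.54 and 3.54, subclone 4 had 2.69, 1.88, 1.67 and 2.81 and subclone 5 had 2.12, 3.25, 2.73 and 2.33. Every library of subclone 2 was thus far below all other libraries, WT5 and polyclonal cells included.

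The 0 in replicate 3 of subclone 2 kept Snhg14 out of the main comparisons. Without that library Snhg14 was the 1 host called in subclone 2 against WT5, and likewise among the subclones. When genes above 0 in any library were tested as log2(TPM + 0.1), the z-score difference of subclone 2 from WT5 was -0.96 ± 0.026 (SE) (adjusted p = 4.7e-06 by limma), just short of the size of 1 that 0.0729% of genes passed, and -3.80 on the log2 scale. Among the subclones the range was 1.16 (adjusted p = 2.4e-10 by limma) and was called, as for 0.152% of genes. Leaving out each library in turn gave -0.97 to -0.94 and 1.14 to 1.20, while log2(TPM + 1) gave -0.48 and 0.69.

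Genes next to Snhg14 were then examined, having been chosen after the values were seen. Snrpn, which encodes a spliceosomal Sm protein and is read from the same strand upstream of Snhg14 (chr7:59982495-60140219), was listed at 0 in all 4 libraries of subclone 2. It was at 3.5 to 5.93 TPM in the other subclones, 5.87 to 6.96 in WT5 and 6.65 to 7.38 in polyclonal cells (z-score difference of subclone 2 from WT5 -1.51 with log2(TPM + 0.1), adjusted p = 2.9e-09 by limma). Gm38393, a predicted coding gene that overlaps the start of Snhg14 on the same strand, was also at 0 in subclone 2 and at 0.59 to 1.52 TPM in the other subclones. Ube3a, which encodes a ubiquitin ligase, showed no such gap, with 31.43, 27.47, 28.51 and 28.42 TPM in subclone 2 and 21.92 to 32.54 in the other subclones (adjusted p = 0.22 against WT5 by limma). Its gene span overlaps that of Snhg14 by 3613 bases on the opposite strand. Farther out, Mkrn3 was at 0.52 to 0.75 TPM and Atp10a at 6.55 to 7.56 in subclone 2, overlapping the ranges of the other subclones (0.25 to 1.14 and 4.75 to 6.96).

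Small RNAs could not be followed across this difference. All 208 snoRNA genes annotated inside Snhg14 on its strand, among them the 17 Snord116 copies of the member list, were listed at 0 in all 28 libraries, whether Snhg14 was at 3.54 TPM or at 0. Snord116l1 has 94 bases, and no small RNA of the member list under 205 bases was above 0 in a paired-end library.

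**Figure D5:**
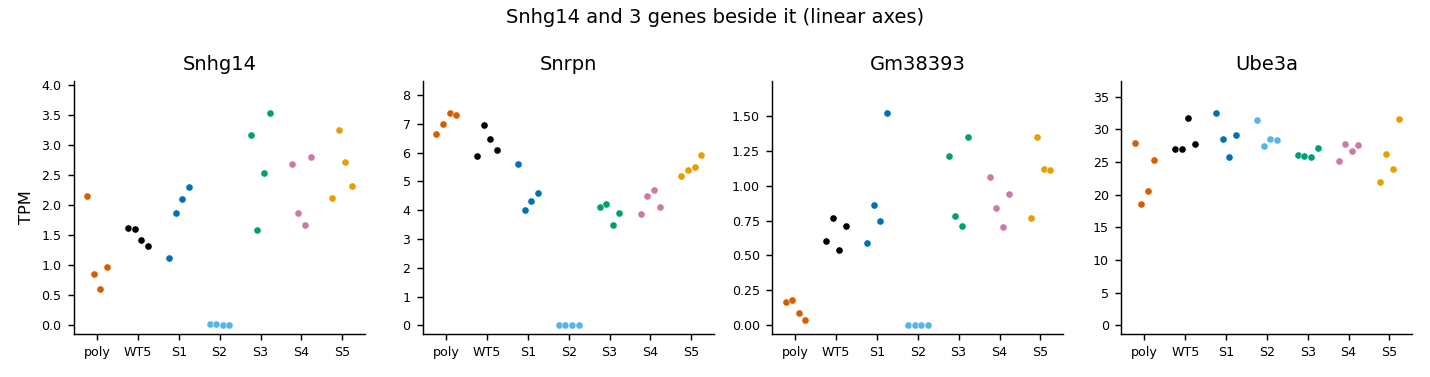
TPM (y axes, linear) of Snhg14 and of 3 genes beside it in every library of polyclonal WT cells (poly), WT5 and subclones 1 to 5 (S1 to S5). Points are single libraries. In subclone 2 Snhg14 is at 0.03 TPM or less and Snrpn and Gm38393 are at 0, while Ube3a is at 27.47 to 31.43 TPM.

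Proteins that bind, assemble or trim these RNAs were present in all groups, and none was called between WT5 and polyclonal cells. Among the 4 core box C/D proteins, Nop56 rose from 137 ± 9.74 (SD, n = 4) to 308 ± 11.6 TPM in WT5 and Fbl, the methyltransferase fibrillarin, from 94.8 ± 12.5 to 161 ± 6.24, both past the adjusted p, while Nop58 and Snu13 passed as lower (z-score differences of -0.10 for each). The list had a median of 0.044. Of the 4 box H/ACA proteins 0 passed (median -0.021), of 13 assembly and Cajal body factors 2 passed as higher and 3 as lower, with Coil, the scaffold coilin of Cajal bodies, at -0.23. Of 10 factors of nonsense-mediated decay 4 passed as higher and 1 as lower (median 0.077), with the kinase Smg1 at 5.06 ± 0.611 and 10.3 ± 0.894 TPM. Of 7 factors of lariat opening and trimming 1 passed, Parn, a poly(A)-specific ribonuclease, as lower (-0.14). All genes had a median of 0.0099 and passed in 65.5% of cases. Against WT5, each subclone had 0 to 4 genes past the adjusted p in each of these 5 lists, and 0 of them were called.

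Of 15 other structured RNA genes, 6 were above 0 in all 8 libraries of polyclonal cells and WT5, and 3 of these were called, all higher in WT5. Rmrp, the RNA of the RNase MRP (271 bases), was at 1.33 to 6.85 TPM in polyclonal cells and at 56.3 ± 13.9 (SD, n = 4) in WT5 (z-score difference 1.19, adjusted p = 4.3e-04 by limma). Rn7s1 and Rn7s2, signal recognition particle RNAs of 300 bases with identical values, were at 9.67 ± 4.53 and 469 ± 48.5 TPM (z-score difference 1.81, adjusted p = 1.3e-05 by limma). Rpph1, the RNA of RNase P, passed the adjusted p (0.78), while Rn7sk (z-score difference 0.64, adjusted p = 0.022 by limma) and Terc (0.18, adjusted p = 0.068 by limma) did not. Rprl3, with 290 bases, was at a mean of 0.358 TPM in polyclonal cells and listed at 0 in all paired-end libraries. Rn7s1 and Rn7s2 were lower again in all 5 subclones past the adjusted p, at means of 43.6 to 78.5 TPM, and were called in subclones 2 and 5 (-1.06 and -1.13). Rn7sk had a mean of 67.3 TPM in WT5 and 101 to 173 in the subclones, and passed the adjusted p as higher in subclone 4 alone (adjusted p = 0.0082 by limma). WT5 and its subclones share read length and library layout but not the table.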

How the data were processed

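The data are 28 RNA sequencing libraries of 7 groups. As deposited by the authors, values are TPM: reads were aligned to GRCm38 with STAR 2.7.3a using Ensembl release 81 and quantified with RSEM 1.3.1, with base calling by CASAVA 1.8 in the submitters' processing notes. One table holds polyclonal cells and WT5, the other the subclones. They were joined by gene identifier, although a single table had been assumed when the comparison of subclones with WT5 was planned. TPM keeps no depth, so no counting error can be given and precision rests on 4 libraries per group. The lowest value above 0 is 0.01.

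log2(TPM) of genes above 0 in every library compared was z-scored within each library, and groups were compared by two-sided tests of limma 3.58.1 in R 4.3.3 with Benjamini-Hochberg adjustment over all genes tested. A gene was called at an adjusted p below 0.01 and a z-score difference above 1. The study states z-scores of log2(TPM) but, in the sources used here, neither the set they were taken over nor this filter. limma stands in for the unequal-variance test of the study, which was an alternative. Other alternatives were pseudocounts of 0.1 and 1, a mean TPM of at least 1, genes above 0 in any library, log2 without z-scores, the adjusted p alone, the replicate number as a block and each library left out. After seeing the data, TPM rescaled over protein-coding genes, 4 settings for genes above 0 in any library and further settings for Snhg14 were added. Tested on simulated data of the comparison of WT5 with polyclonal cells (13723 genes), 98% of 100 changes of 1.5 z-score units were recovered. Among the hosts tested only Snhg18 differed by as much, so recovery of the smaller host differences was not tested. No small RNA was among these genes.

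Exon length, position and sequence came from GENCODE M21 on GRCm38, which held all 164 members and symbols for 45143 of 45706 genes. C and D boxes and the ACA were searched on the gene's own strand only. Whether counting used the strand is not given in the sources used here. The members and lists were chosen with earlier results of these data known. Named were all hosts tested, in full for the 8 with the highest mean TPM, the 10 small RNAs with the highest mean, called small RNAs, those inside named hosts, and of each list the called genes. Lists without a called gene were to name up to 3 genes with the highest mean TPM. Fbl, Coil, Smg1 and Parn were named outside this rule, since more than 3 genes or 3 genes of their lists have higher means. The genes around Snhg14, Sema5a and the rest of the 11 small RNAs seen in every polyclonal library were chosen after their values were seen.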

Additional observations from a re-analysis of the deposited data

Results flagged for a closer look

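In a few groups 1 library lay apart from the other 3 by more than the 95% critical value of Dixon's test. Of 87 groups examined 5 did so, and chance alone gives about 1 in 20. Snhg3 was at 52.51 TPM in 1 WT5 library beside 63.35 to 65.25 in the others, and at 77.42 in 1 library of subclone 2 beside 87.17 to 88.3. Snhg6 was at 137.16 TPM in 1 library of subclone 1 beside 122.58 to 123.9. Snhg7os, a transcript opposite to Snhg7, was at 1.02 TPM in 1 library of subclone 1 beside 0.15 to 0.19. The summed small RNAs reached 27.26 TPM in 1 library of subclone 2 beside 0.84 to 2.75, and Snora73b alone was at 21.66 in that library.

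Differences among the 5 subclones that passed the adjusted p of limma's F test were a range of 0.1813 z-score units for Snhg18, highest in subclone 5, and of 0.1535 for Snhg3, lowest in subclone 5. With genes above 0 in any library, Snhg14 had a range of 1.155, lowest in subclone 2. What lies behind these differences was not tested.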

How the results depend on the processing

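The 1 host called between WT5 and polyclonal cells (Snhg18; 5.43% of all genes) became 7 members with genes above 0 in any library and log2(TPM + 0.1) (4.57% of all genes), 5 with those and the unequal-variance test (4.38%), 20 with those and no z-scores (24.5%), 7 without z-scores (25.5%), 7 with TPM rescaled over protein-coding genes (23.4%) and 10 by the adjusted p alone (65.5%). Leaving out each library gave 1 to 1. The 0 called in at least 1 subclone became 6 by the adjusted p alone (53.5%) and 1 with genes above 0 in any library and no z-scores (1.54% in subclone 2), and 0 to 1 with a library left out, where the 1 was Snhg14 without subclone 2 replicate 3. Among the subclones 0 (0.613%) became 1 with genes above 0 in any library (0.152%), 2 with those and the unequal-variance test (0.171%), 1 with those and no z-scores (3.74%), 2 by the adjusted p alone (24.6%) and 0 to 1 with a library left out. None of the host differences that passed the adjusted p changed direction under these settings. Of the values for single hosts under other settings 334 kept their side of the threshold and 37 fell below it, and with a library left out 280 and 36.

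Same-numbered libraries correlated at -0.297 to 0.150 in their deviations from the group means (84 pairs, median 0.0010), so the numbers do not pair them. With the replicate number as a block the counts were 1, 0 and 0, or 7, 0 and 1 with genes above 0 in any library. The adjusted p was then passed by 1, 3, 2, 4 and 2 hosts in subclones 1 to 5 (all genes 7.5%, 8.61%, 4.83%, 26.1% and 8.87%), instead of 5, 4, 5, 4 and 2. Snhg14 in subclone 2 stayed at -0.96 (adjusted p = 5.5e-04 by limma). TPM gives no depth, so a listed 0 has no upper limit here.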
